A study of Homo sapiens with 8 samples.

Results

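Axon guidance genes were examined in SUIT2, a cell line from a human pancreatic ductal adenocarcinoma (PDA), as 42 ligand and receptor genes chosen by family name from the 25702 genes listed. They comprise 18 semaphorins, 2 netrins and 3 SLIT genes as 23 ligands, and 9 plexins, 2 neuropilins, 3 UNC5 genes, *DCC*, *NEO1* and 3 ROBO genes as 19 receptors. The rule names families and uses no measured value, but it was set with earlier results of these data known. RNA-seq was performed on 8 libraries, 4 labelled scramble shRNA (shScr_1 to shScr_4) and 4 labelled En1 shRNA, of which 2 carry construct number 1 (shEn1_1.1 and shEn1_1.2) and 2 carry construct number 2 (shEn1_2.1 and shEn1_2.2). All 8 come from the same line and all received an shRNA, so no library represents untreated cells. EN1 is a homeobox transcription factor of the developing nervous system, and the comparison asks whether guidance genes differed between SUIT2 cells given an shRNA against it and cells given the scramble. Nothing in the labels states that the libraries came from separate cultures, so the p-values measure the spread between these libraries, which may be technical.

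Guidance ligands steer growing axons and migrating cells by attracting or repelling them. Secreted class 3 semaphorins bind neuropilins, which signal through A plexins, whereas membrane-bound class 4 and class 6 semaphorins bind plexins directly. Netrins act through DCC, neogenin and the UNC5 receptors, SLIT proteins act through ROBO receptors, and members of all these families are also expressed by epithelial and carcinoma cells.

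The targeted gene was not detectably lower in the libraries labelled shEn1. The study itself reports depletion of EN1 in SUIT2 cells, with *EN1* mRNA measured by RT-qPCR. *EN1* had 4.10, 4.50, 4.93 and 2.51 CPM (counts relative to the TMM-adjusted library total) in shScr_1 to shScr_4. In shEn1_1.1, shEn1_1.2, shEn1_2.1 and shEn1_2.2 it had 5.77, 5.41, 1.35 and 6.70 CPM. The arms overlapped, and 3 of the 4 libraries labelled shEn1 lay above the shScr mean (4.01 ± 1.06 against 4.81 ± 2.37 CPM, SD, n = 4 each, exact two-sided permutation test, p = 0.543, where the smallest p this design allows is 0.0286). Groups are therefore named by their labels throughout, and each direction is a direction between labels. Library totals lay between 33423590 and 37810604 counts, and the 42 genes held between 0.176% and 0.216% of a library.

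The epithelial character of the cells, inferred from their origin in a PDA, was checked against marker genes. All 6 epithelial markers had at least 1 CPM in every library, with a summed level of 11440 to 18540 CPM. The neuronal sum of 38.2 to 67.2 CPM came almost wholly from *TUBB3*, and *STMN2*, a neuronal gene, was at 0 in every library. The sum over 3 endothelial markers (0.316 to 0.676 CPM) stayed below 1 CPM, and *CDH5*, an endothelial cadherin, and *S100B*, a glial gene, were at 0 throughout. The fibroblast sum of 1.17 to 4.22 CPM was mostly *COL1A1*, with *COL1A2*, *DCN* and *LUM* at 0, and the leukocyte sum was *CD68* alone, with *PTPRC* and *CD3E* at 0.

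Promoter sequences were available for 36 of the 42 genes, as 60 RefSeq entries on GRCh38.p14 that run from 250 bases before to 50 bases after a start site. Homeobox factors of the engrailed type are known to bind a TAATTA or TAATTG core, so both were searched on both strands. TAATTA was found in 4.84% of all 35116 promoter entries and in 1.67% of the 60 guidance entries (1 gene, *ROBO3*). TAATTG was found in 7.38% of all entries and in 5.0% of the guidance entries (3 genes, *ROBO1*, *SEMA3E* and *PLXNB2*). The stretches around these 4 matches are shown 5′ to 3′ on the gene's strand because they are the only ones among the guidance entries, with the match on either strand in capitals. None of the 4 genes passed the test between labels described further on.
*ROBO3*, chr11:124865286-124865345, plus strand: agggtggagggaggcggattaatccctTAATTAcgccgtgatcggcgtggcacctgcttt
*ROBO1*, chr3:79768118-79768177, minus strand: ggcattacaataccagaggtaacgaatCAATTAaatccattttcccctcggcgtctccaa
*SEMA3E*, chr7:83641471-83641530, minus strand: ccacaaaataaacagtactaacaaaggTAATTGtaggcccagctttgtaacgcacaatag
*PLXNB2*, chr22:50301823-50301882, minus strand: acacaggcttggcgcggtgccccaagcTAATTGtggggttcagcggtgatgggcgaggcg

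The GC box GGGCGG, the core bound by SP1-type factors, was present on either strand in 39 of the 60 guidance entries (65.0%) and in 45.0% of all promoter entries. A match is a description of the letters and not a binding site. The 150 bases before the start sites of *NEO1*, a netrin receptor, and *NRP2*, a semaphorin co-receptor, are shown with the GC box in capitals. They are 2 of the 30 guidance genes with the box, picked after their levels were seen to run in opposite directions across the libraries. A link between the box and the levels was not tested.
*NEO1*, chr15:73051752-73051901, plus strand: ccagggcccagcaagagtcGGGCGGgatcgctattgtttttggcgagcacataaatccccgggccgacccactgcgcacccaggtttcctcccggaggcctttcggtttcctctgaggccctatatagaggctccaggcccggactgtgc
*NRP2*, chr2:205682351-205682500, plus strand: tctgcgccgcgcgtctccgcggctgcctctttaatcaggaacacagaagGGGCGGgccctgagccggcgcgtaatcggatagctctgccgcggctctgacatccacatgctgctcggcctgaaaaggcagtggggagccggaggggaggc

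SUIT2 cells transcribed most guidance families, but not every member. At least 1 CPM was found in every library for 28 of the 42 genes, in some libraries for 4 (*SEMA3B*, *SEMA3E*, *SEMA6C* and *PLXNC1*), and in no library for 10. Those 10, *SEMA3D*, *SEMA4A*, *SEMA5A*, *SEMA6D*, *PLXNA4*, *UNC5C*, *DCC*, *SLIT1*, *SLIT3* and *ROBO2*, did not pass the filter on low counts and reached at most 22 counts (0.587 CPM) in any library. Only 27.4% to 31.4% of the counts from 1 to 9 in a library were odd, so both mates of a read pair may have been counted, and 22 counts may stand for fewer fragments. *DCC*, the classical attractive netrin receptor, and *SEMA6D* had 0 counts in all 8. The other 32 genes, 17 ligands and 15 receptors, were tested. In bulk RNA a lower level in fewer cells and a lower level per cell cannot be told apart.

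To compare levels between genes, CPM was divided by the kilobases of merged exons. On this scale the highest receptor was *PLXNB2*, a B plexin for class 4 semaphorins (64.7 ± 9.39 CPM per kb, SD, n = 8), and the highest ligand was *SEMA4B*, a class 4 semaphorin (46.1 ± 6.42). *PLXNB2* lies on the minus strand at chr22:50713408-50746075 and *SEMA4B* on the plus strand at chr15:90703836-90772911 of GRCh37. They were followed by *SEMA3C*, a secreted class 3 semaphorin (25.5 ± 5.71 CPM per kb), the netrin receptor gene *UNC5A* (19.6 ± 5.49) and the neuropilins *NRP2* (15.9 ± 7.13) and *NRP1* (13.2 ± 1.97). *PLXNB1* (10.99 ± 2.16), *SEMA7A* (7.76 ± 5.08), *NTN4* (7.42 ± 2.55) and *PLXNA1* (7.41 ± 2.26) completed the 10 highest. With the longest transcript as the length the same 10 came first in another order, led by *SEMA4B* (85.3 CPM per kb), *PLXNB2* (73.4), *NRP2* (33.2) and *SEMA3C* (31.9), and *NRP1* was at 25.8. Per kilobase of merged exons, the lowest *SEMA4B* value lay above the highest of *SEMA3C*, whereas the ranges of all other neighbours in this order overlapped. The median over the 32 genes was 2.31 CPM per kb, against 4.63 over all tested genes with a length (94.4% of them), and 11 guidance genes lay above the latter.

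**Figure D1:**
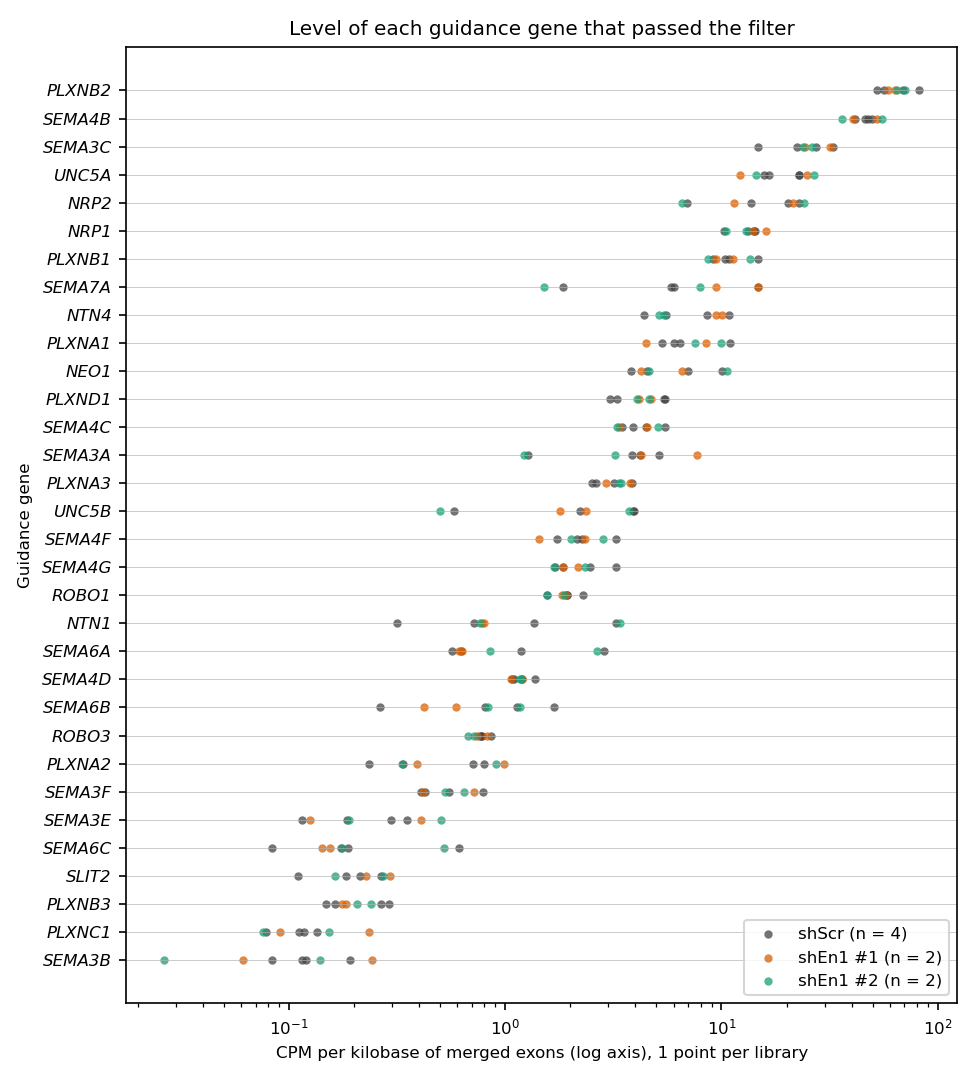
CPM per kilobase of merged exons on a log axis for the 32 guidance genes that passed the filter, with 1 point per library coloured by label. *PLXNB2* and *SEMA4B* lie highest and *SEMA3B* lowest, and the points of the 3 labels are intermingled.

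Among the leading genes, *PLXNB2* had 381.0, 410.3, 597.9 and 501.3 CPM in shScr_1 to shScr_4 and 427.5, 463.7, 469.4 and 514.6 CPM in shEn1_1.1, shEn1_1.2, shEn1_2.1 and shEn1_2.2, in the order used for all values that follow. *SEMA4B* had 323.7, 346.1, 332.1 and 289.0 CPM in the shScr libraries and 285.3, 365.4, 251.3 and 386.1 CPM in the shEn1 libraries. The shEn1 values of *PLXNB2* all lay inside its shScr range, and those of *SEMA4B* reached below and above its shScr range, so the arms of both genes overlapped. *SEMA3C*, which signals through neuropilins, had 200.8, 167.5, 90.3 and 136.8 CPM under shScr and 148.5, 194.8, 159.5 and 145.8 CPM under shEn1. *UNC5A* had 98.4, 99.0, 71.3 and 67.7 CPM under shScr and 52.4, 107.9, 62.4 and 116.2 CPM under shEn1. The shEn1 libraries held both the lowest and the highest *UNC5A* value. *PLXNB1*, the receptor of *SEMA4D*, had 100.9, 105.5, 143.6 and 89.0 CPM under shScr and 92.0, 110.2, 84.3 and 133.0 CPM under shEn1, whereas *PLXNA1*, which signals with neuropilins, had 72.4, 59.7, 68.0 and 122.5 CPM under shScr and 50.5, 95.7, 111.9 and 85.1 CPM under shEn1. The lowest 2 values of *PLXNB1* and the highest 2 of *PLXNA1* came from the same libraries, shScr_4 and shEn1_2.1.

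No guidance gene was a DEG between the shEn1 and the shScr labels. With edgeR's quasi-likelihood test and Benjamini-Hochberg adjustment over the 14333 genes tested, 0 of 32 guidance genes had an adjusted p below 0.05 (0.0% of all tested genes), and 0 had an unadjusted p below 0.05 (0.307% of all tested genes). DESeq2, which called 2 genes in all (0.014% of all tested genes), and limma-voom, which called 0 (0.0%), also called 0 guidance genes. The study itself used DESeq2 and reports a far longer list of DEGs for SUIT2 cells after *EN1* knockdown, without stating its threshold for that list. The reason for this difference was not tested. The log2 fold changes ran from -0.37 to 0.38, with 16 above and 16 below 0 and a median of 0.0035 (-0.0028 over all tested genes). Ligands split 8 above and 9 below, and receptors 8 above and 7 below. The smallest unadjusted p was 0.365, for *PLXNA3*, and no guidance gene had arms that did not overlap in CPM (0.419% of all tested genes). With these 4 libraries against 4, standard errors reached 0.74 on the log2 scale for *NTN1*, so changes of that size were not detectable for the most uneven genes.

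The 5 highest log2 fold changes (shEn1 minus shScr) were those of *SEMA3E*, a ligand of PLXND1 (0.38, standard error 0.49), *PLXNA2* (0.33, standard error 0.47), *PLXNC1*, the receptor of SEMA7A (0.33, standard error 0.43), *SLIT2*, a ligand of ROBO receptors (0.31, standard error 0.33), and *SEMA7A* (0.24, standard error 0.69). The 5 lowest were those of *SEMA6B*, a ligand of A plexins (-0.37, standard error 0.51), the netrin receptor gene *UNC5B* (-0.34, standard error 0.65), *SEMA4G* (-0.21, standard error 0.23), *SEMA6A* (-0.14, standard error 0.63) and *SEMA4F* (-0.12, standard error 0.24). The edgeR adjusted p was 1.00 for each of the 10. The SEMA4G locus lies wholly across from *MRPL43* on the other strand, and without a stated strand setting reads of the 2 genes cannot be told apart.

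**Figure D2:**
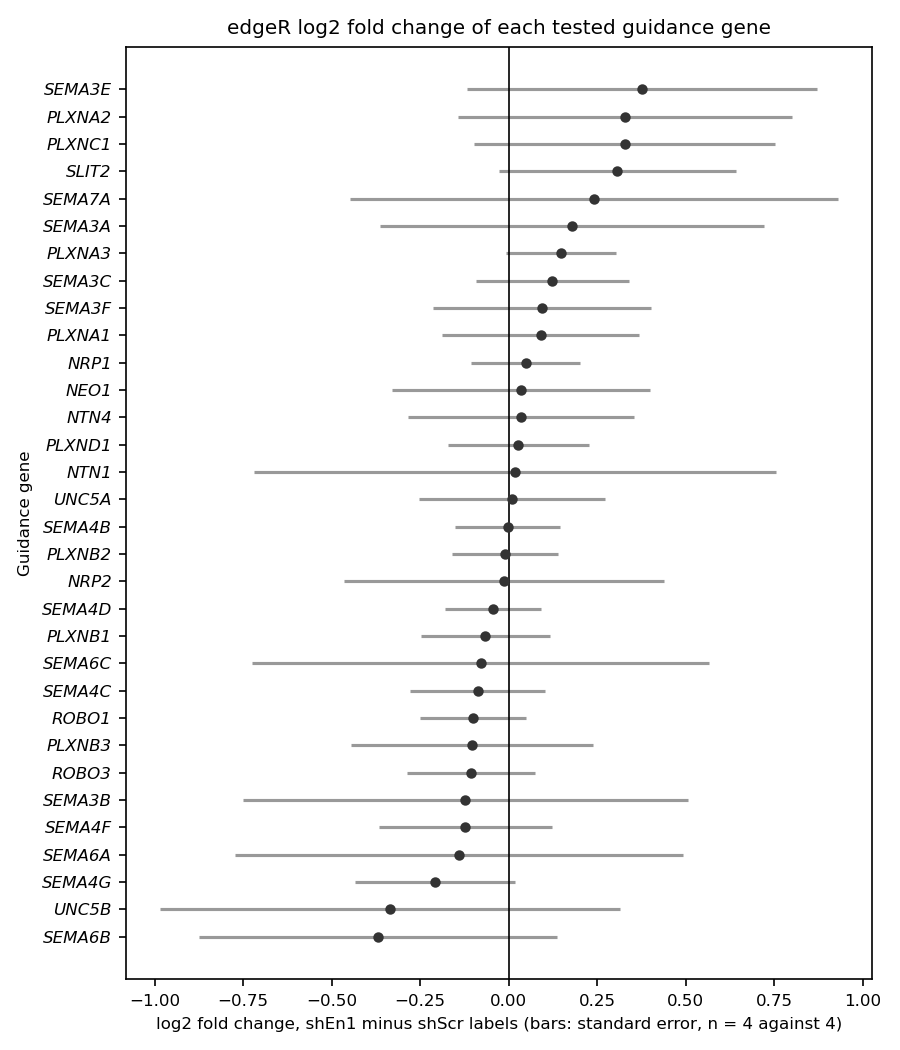
edgeR log2 fold change (shEn1 minus shScr labels, n = 4 against 4) of the 32 tested guidance genes, with bars for the standard error. The values run from -0.37 for *SEMA6B* to 0.38 for *SEMA3E*, and every bar crosses 0.

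By family, the 5 tested class 4 semaphorins, the 3 class 6 semaphorins, the 3 B plexins and the 2 ROBO genes all had values below 0, and the 3 A plexins and 2 netrins values above 0, none of which passed the test. Some of these values were close to 0, such as *SEMA4B* (-0.0032, standard error 0.15) and *PLXNB2* (-0.012, standard error 0.15). Signs also depended on the libraries: without the 2 pairs described below, those of *PLXNB2*, *SEMA6A*, *SEMA6B*, *SEMA4F* and *SEMA4G* turned. Of the 5 class 3 semaphorins, 4 lay above 0 and 1 below. The summed level of the B plexins was 583.9 ± 115.2 CPM under shScr and 575.1 ± 54.1 CPM under shEn1 (SD, n = 4), and that of the neuropilins 371.5 ± 120.2 and 374.5 ± 123.5 CPM. Both differences were far smaller than the spread. Among SLIT and ROBO genes, *ROBO1*, the main SLIT receptor measured here, had 21.3, 21.4, 25.4 and 17.2 CPM under shScr and 21.2, 20.2, 20.7 and 17.3 CPM under shEn1. *SLIT2* was low, at 2.35, 1.21, 2.04 and 2.94 CPM under shScr and 3.25, 2.50, 2.996 and 1.81 CPM under shEn1, and its arms overlapped.

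The constructs were also compared one by one in a fit with 3 groups, in which both share the shScr libraries. Construct 1 and construct 2 each gave 0 called guidance genes against shScr (0.0% of all tested genes in each), and 0 between each other (0.0%). Between constructs, 1 guidance gene, *NTN4*, a netrin of basement membranes, had an unadjusted p below 0.05 (1.07% of all tested genes). *NTN4* had 37.5, 24.3, 47.2 and 19.2 CPM under shScr, 43.7 and 41.3 CPM with construct 1, and 22.5 and 23.6 CPM with construct 2. Its 2 values with construct 2 lay below both with construct 1 and inside the shScr range (log2 difference, construct 2 minus construct 1, -0.88, standard error 0.37, unadjusted p = 0.0399, adjusted p = 1.00 from edgeR). The log2 fold change of *NTN4* against shScr was 0.41 (standard error 0.31) with construct 1 and -0.47 (standard error 0.32) with construct 2. The lowest 2 *NTN4* values of all libraries were those of shScr_4 and shEn1_2.1, and the highest 2 those of shScr_3 and shEn1_1.1. The part of such library differences in the contrast between constructs was not tested.

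Guidance genes varied widely between libraries. Over all 8 libraries of both labels, the highest library was at least 2 times the lowest for 19 of the 32 guidance genes (35.8% of all tested genes), and the median ratio was 2.34, against 1.69 over all tested genes. It ran from 1.28 for *ROBO3* to 10.7 for *NTN1*, the founding netrin. *NTN1* had 4.58, 2.02, 8.75 and 20.9 CPM under shScr and 5.12, 5.03, 21.7 and 4.88 CPM under shEn1. *SEMA7A*, a membrane-anchored semaphorin, had 55.9, 22.2, 23.03 and 6.99 CPM under shScr and 35.8, 56.0, 5.76 and 30.2 CPM under shEn1. The libraries labelled shScr_4 and shEn1_2.1 were the highest 2 for *NTN1* and the lowest 2 for *SEMA7A*. *UNC5B*, a netrin receptor, was lowest in the same 2 libraries, with 15.1, 26.9, 26.5 and 3.98 CPM under shScr and 12.2, 16.2, 3.43 and 25.7 CPM under shEn1. *SEMA3A*, the class 3 semaphorin known for collapsing growth cones, had 39.1, 35.6, 47.5 and 11.8 CPM under shScr and 71.5, 39.1, 11.3 and 29.8 CPM under shEn1.

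The 3 class 6 semaphorins tested, membrane ligands of A plexins, were each highest in these 2 libraries. *SEMA6A* had 6.21, 6.79, 12.8 and 31.1 CPM under shScr and 6.64, 6.88, 28.9 and 9.25 CPM under shEn1. *SEMA6B* had 1.24, 3.80, 5.31 and 7.95 CPM under shScr and 2.77, 1.97, 5.51 and 3.90 CPM under shEn1. *SEMA6C* had 0.482, 1.08, 1.00 and 3.52 CPM under shScr and 0.896, 0.824, 3.02 and 1.01 CPM under shEn1. *SEMA6B* in shEn1_2.1 was close to shScr_3, whereas *SEMA6A* and *SEMA6C* stood clear of the other 6 libraries. The last of the 8 most uneven genes, *SEMA3B*, was near the limit of detection, with 0.152 to 1.40 CPM.

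**Figure D3:**
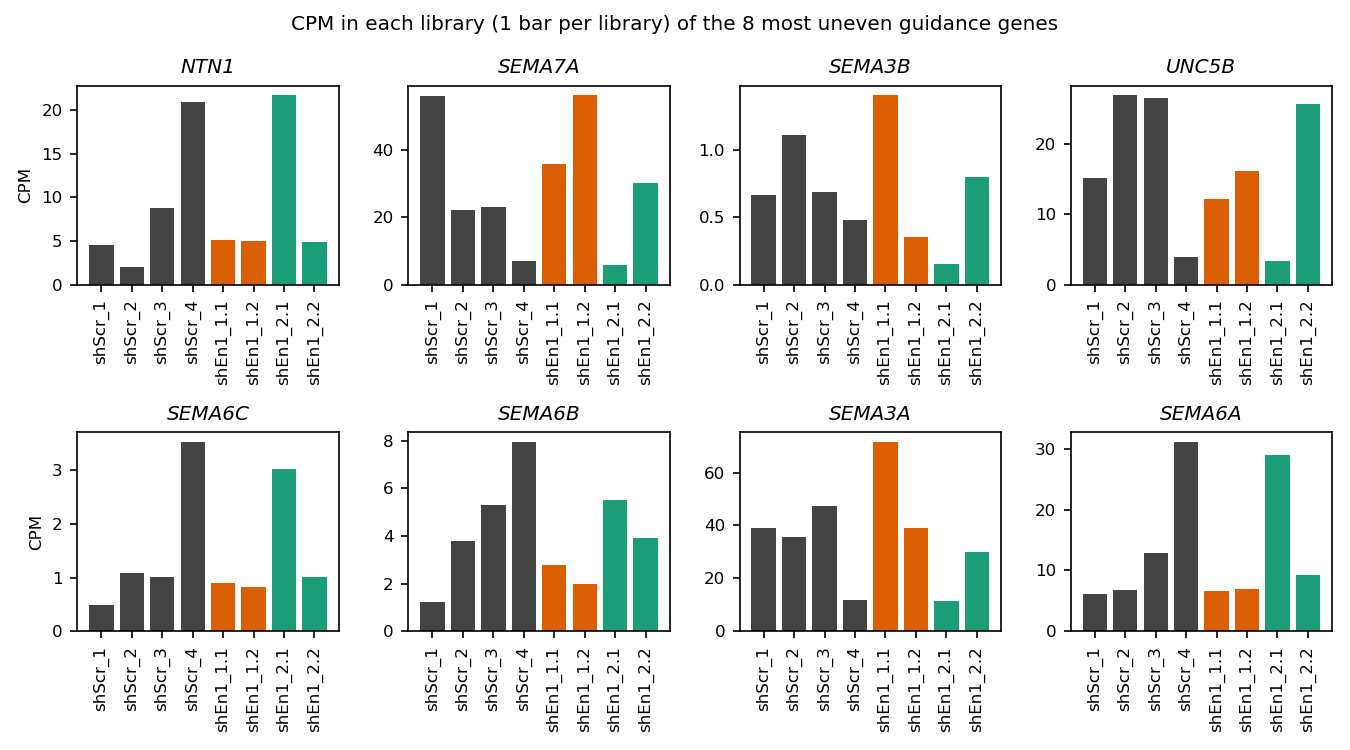
CPM in each of the 8 libraries (1 bar per library, coloured by label and construct) for the 8 guidance genes with the largest ratio of highest to lowest library. *NTN1*, *SEMA6A*, *SEMA6B* and *SEMA6C* are highest, and *SEMA7A*, *UNC5B* and *SEMA3A* lowest, in shScr_4 and shEn1_2.1.

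The libraries labelled shScr_4 and shEn1_2.1 were the highest 2 for 8 guidance genes (18.8% of all tested genes had this order): the ligands *NTN1*, *SEMA4C*, *SEMA4F*, *SEMA6A*, *SEMA6B* and *SEMA6C* and the receptors *PLXNA1* and *NEO1*. They were the lowest 2 for another 8 (19.2% of all tested genes): the ligands *SEMA3A*, *SEMA7A* and *NTN4* and the receptors *NRP1*, *NRP2*, *PLXNA2*, *PLXNB1* and *UNC5B*. With 8 of 32 in each direction, the guidance genes lay near the shares of all genes. *NEO1*, which encodes neogenin, had 31, 36.8, 56.9 and 82.1 CPM under shScr and 53.6, 34.4, 86.0 and 37.7 CPM under shEn1. *NRP2* had 282.5, 318.9, 190.4 and 96.6 CPM under shScr and 159.5, 296.4, 91.2 and 333.1 CPM under shEn1, and *NRP1* had 165.5, 162.1, 152.1 and 118.0 CPM and 185.2, 162.0, 121.4 and 149.2 CPM. *NEO1* was highest and *NRP2* lowest in this pair, and a link to their printed promoter sequences was not tested. Of the 6 epithelial markers, 4 (*EPCAM*, *CDH1*, *KRT7* and *KRT19*) were also lowest in these 2 libraries (*EPCAM* at 234.2 and 240.8 CPM, and 365.8 to 589.2 CPM in the other 6), as were *CD68* (8.38 and 7.74 CPM) and the targeted gene *EN1* (2.51 and 1.35 CPM, and 4.10 to 6.70 CPM in the other 6), and their normalization factors were the highest (1.06 and 1.07). The part of these differences in the guidance values was not tested. A second pair, shScr_3 and shEn1_1.1, held the highest 2 or the lowest 2 values of 3 guidance genes, *SEMA3A*, *NTN4* and *ROBO3* (13.9% of all tested genes).

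Without shScr_4 and shEn1_2.1, 0 guidance genes were called, and 1 of all 14263 genes tested. Without both pairs, which leaves 2 libraries against 2, 0 guidance genes were called, and 1 of all 14273 genes tested. In that fit 4 plexins, *PLXNA1* (log2 fold change 0.45), *PLXNA3* (0.49), *PLXNB2* (0.30) and *PLXND1* (0.47), had an unadjusted p below 0.05, a share of 12.5% (10.6% of all tested genes). In that comparison 24 of the 32 guidance genes lay above 0 and 8 below, in place of 16 and 16. Their median log2 fold change was 0.15 (0.0012 over all tested genes). These pairs were chosen after the values were seen.

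Ratios of counts inside a library do not depend on its scaling. The ratio of *NRP2* to *NRP1* was 1.71, 1.97, 1.25 and 0.819 under shScr and 0.861, 1.83, 0.752 and 2.23 under shEn1, so that either neuropilin could lead under both labels. The ratio of *NTN1* to *NTN4* was 1.09 in shScr_4 and 0.962 in shEn1_2.1, and 0.0833 to 0.207 in the other 6 libraries. The ratio of the netrin receptors *NEO1* to *UNC5B* was 20.6 and 25.1 in these 2 libraries and 1.37 to 4.38 in the others. For the membrane semaphorins *SEMA6A* and *SEMA7A* the ratio was 4.45 and 5.01, against 0.111 to 0.558. In each of these ratios the 2 libraries fell on the same side and carried different labels. Apart from *NRP2* to *NRP1*, each divided a gene listed above as highest in these 2 libraries by one listed as lowest. That outcome therefore followed from the choice of genes. The ratio of *PLXNB2* to *SEMA4B* was 1.73 in shScr_4 and 1.87 in shEn1_2.1, with shScr_3 between them at 1.80, and did not set the 2 libraries apart.

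**Figure D4:**
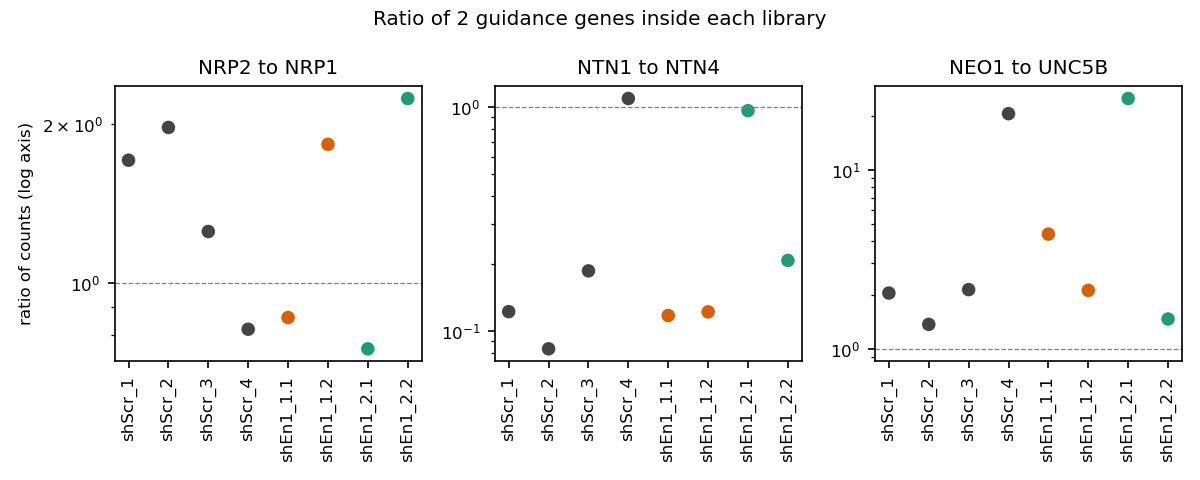
Ratio of counts of *NRP2* to *NRP1*, *NTN1* to *NTN4* and *NEO1* to *UNC5B* in each library (log axes, 1 point per library coloured by label and construct, dashed line at equal counts). The ratio of *NTN1* to *NTN4* is near 1 in shScr_4 and shEn1_2.1 and 0.0833 to 0.207 in the other 6 libraries.

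Of 65 other guidance ligands, co-receptors and cytoplasmic effectors, 42 were tested and 0 were called (0.0% of all tested genes). Their log2 fold changes were above 0 for 27 and below 0 for 15, with a median of 0.019 and a range from -1.26 to 0.31. The lowest value, that of *RND1*, a small GTPase that binds plexins, was the only one with an unadjusted p below 0.05 (standard error 0.57, unadjusted p = 0.0490, adjusted p = 1.00 from edgeR). *RND1* was low, at 0.422, 0.647, 1.32 and 2.455 CPM under shScr. Under shEn1 it had 0.392, 0.559, 0.660 and 0.399 CPM, and the arms overlapped. The highest log2 fold change was that of *MICAL2*, a relative of the plexin effector MICAL1 (standard error 0.37). Of the 23 not tested, 9 had 0 counts in every library.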

How the data were processed

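RNA-seq counts of 8 SUIT2 libraries were grouped by title, the first number of a shEn1 title being read as the construct. The authors purified mRNA with polyT beads, aligned paired-end reads with HISAT2 and deposited whole-number counts per gene from featureCounts, without normalization. The labels name mm9 and the study's methods hg19 for human samples. The strand and pair settings are not given in the sources used here, and most low counts are even, so a minimum count of 10 may stand for fewer fragments. Library totals were 33423590 to 37810604 counts. Counting error depends on the counts of each gene and weighs more on genes with few, such as *PLXNC1* (26 to 84 counts in a library).

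Gene numbers were matched to symbols through a RefSeq table (23696 of 25702), and positions and lengths came from GENCODE lifted to GRCh37. Genes were filtered with filterByExpr (minimum count 10), scaled by TMM factors and tested with edgeR 4.0.16 in R 4.3.3 (glmQLFit, robust, and glmQLFTest, after a test on simulated data), pooling the constructs. Standard errors are the log2 fold change over the square root of F. The exact permutation test used SciPy 1.17.1. Alternatives were DESeq2 1.42.0, limma-voom 3.58.1, other scalings and filters, 3 groups, the replicate number as a block and leaving out libraries. Members, lists and tests were chosen with earlier results of these data known. Genes named with values were the 10 highest by CPM per kb, the 8 most uneven, the 5 highest and 5 lowest log2 fold changes, and those a ligand-receptor sentence needed.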

Additional observations from a re-analysis of the deposited data

Results flagged for a closer look

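In 4 of 66 groups of 4 libraries (32 guidance genes and *EN1* in each arm), 1 library stood far from the other 3 by Dixon's test, where chance gives about 3.3. All 4 were libraries labelled shEn1. *NTN1* had 21.7 CPM in shEn1_2.1 (4.88 to 5.12 CPM in the other 3), *SEMA6A* had 28.9 CPM (6.64 to 9.25 CPM) and *SEMA6C* had 3.02 CPM (0.824 to 1.01 CPM) in that same library, which is 1 library and not 3 independent flags. *SEMA4D*, the ligand of PLXNB1, had 15.1 CPM in shEn1_1.1, against 16.6 to 16.8 CPM in the other 3, a small gap. The cause of these gaps was not tested.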

How the results depend on the processing

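Every alternative called 0 guidance genes at an adjusted p below 0.05, and no alternative called more than 3 of all tested genes. The smallest adjusted p of a guidance gene over all of them was 0.401, in the comparison without both pairs. Leaving out each library in turn gave 0 called guidance genes each time, and at most 1 called among all tested genes. Of the 32 to 34 guidance genes tested in these fits, 14 to 19 lay above 0, and their median log2 fold change was -0.086 to 0.042. The median moved to 0.15 (0.0012 over all tested genes), with 24 genes above 0, without both pairs (shScr_4, shEn1_2.1, shScr_3 and shEn1_1.1 left out). Between constructs, 1 gene had an unadjusted p below 0.05, 2 with DESeq2 and 3 with the libraries of both constructs alone (1.07%, 1.68% and 1.43% of all tested genes). The replicate number shared by labels did not pair the libraries consistently (correlations of deviations -0.381 to 0.319 over 6 pairs). Deviations were taken from the mean of each arm, with both constructs pooled. The pairs shEn1_1.1 with shEn1_2.1 (-0.375) and shEn1_1.2 with shEn1_2.2 (0.0883) lie inside the shEn1 arm. Deviations inside an arm sum to 0, so correlations there lean negative. Between the arms, the correlations ran from 0.187 to 0.319 for the pairs with number 2 and from -0.381 to 0.0089 for those with number 1. With a replicate block, in which shScr_3 and shScr_4 have no counterpart, 0 guidance genes and 1 of all 14333 tested genes were called. In this fit 3 guidance genes had an unadjusted p below 0.05 (1.89% of all tested genes), and the log2 fold changes of *PLXNA2* (-0.40), *SEMA7A* (-0.40), *SEMA6B* (0.54), *SEMA6A* (0.84) and *SEMA4F* (0.15) changed sign. Without both pairs those of *SEMA6B* (0.21), *SEMA4G* (0.0041), *SEMA6A* (0.31) and *SEMA4F* (0.16) did, and with the dataset number of the file headers as a covariate that of *SEMA6A* (0.18). Over the settings that left out no single library, 122 of 132 values of the 10 named genes and *EN1* kept their sign.

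Leaving out single libraries gave 0.057 to 0.57 for *EN1*, 0.032 to 0.64 for *SEMA3E*, 0.054 to 0.61 for *PLXNA2*, 0.11 to 0.50 for *SLIT2* and -0.77 to -0.015 for *UNC5B*. The sign turned for *PLXNC1* (-0.051 to 0.53, without shEn1_1.1), *SEMA7A* (-0.17 to 0.88, without shScr_4 or shEn1_1.2), *SEMA6B* (-0.68 to 0.038, without shScr_4), *SEMA4G* (-0.33 to 0.0019, without shScr_3), *SEMA6A* (-0.91 to 0.59, without shScr_4, shEn1_1.1 or shEn1_1.2) and *SEMA4F* (-0.29 to 0.074, without shScr_4 or shEn1_1.1). The cause was not tested. None of these 10 values is called in any setting. The dataset number and the settings without pairs were added after seeing the data. Depth limits the 10 genes that were not tested and those near 1 CPM.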

Other observations

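By the root mean square difference in log2 CPM over the 32 guidance genes, the nearest library carried the other label for 8 of 8 libraries, and for 7 of 8 over all tested genes. Each library has more others of the other label than of its own. Nearest libraries were often mutual, so these counts are not independent, and their chance level was not computed. The closest were shScr_1 and shEn1_1.2 (0.303), followed by shScr_4 and shEn1_2.1 (0.348) and shScr_2 and shEn1_2.2 (0.355). The greatest distance over the guidance genes was 1.32, between shScr_1 and shScr_4, which share a label, and between shScr_1 and shEn1_2.1. *SEMA3G*, a class 3 semaphorin outside the 42 genes, also had its highest 2 values in shScr_4 (3.52 CPM) and shEn1_2.1 (4.34 CPM), and was named after its values were seen.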
